A study of Mus musculus with 3 samples.

Results

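The 10 genes described here are 7 output or feedback genes of the circadian clock (*Per1*, *Per2*, *Per3*, *Dbp*, *Tef*, *Nr1d1* and *Nr1d2*) and 3 genes of the glucocorticoid response (*Tsc22d3*, *Fkbp5* and *Sgk1*). They were taken by symbol from the 32285 genes of the tables and not by a cut on their levels, though earlier results of these data were known. Single-cell RNA sequencing was done on glomerular preparations of mouse kidney, with 1 library a group. The MRL/lpr library came from MRL/lpr mice, a lupus-prone strain that carries the lpr mutation of *Fas* and develops lupus nephritis, here labelled as the model group. The MRL/lpr + hUC-MSC library came from lupus nephritis mice that received human umbilical cord mesenchymal stem cells, and the third library is labelled as a blank control. The MRL/lpr mice of the study were female and entered the model group at about 16 weeks of age once their urine protein ratio kept rising, and the lupus libraries were placed at 21 days of treatment in the study. The methods give the dose as 800000 of these cells for a mouse, injected into the tail vein. The controls of the study were MRL/MpJ mice, and the label of this library does not name the strain or age. How many mice were pooled in a library and the time of day at which kidneys were taken are not given in the sources used here. Strain, treatment, time of sampling and library therefore cannot be told apart, and no value below has a replicate check.

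The circadian clock is a loop of transcription that runs in nearly every cell. CLOCK and BMAL1 (the product of *Arntl*) switch on the *Per* and *Cry* genes, whose products shut the activators off again, while REV-ERB proteins and ROR receptors compete over *Arntl* and the proteins DBP and TEF carry the rhythm to output genes. Glucocorticoids, themselves released in a daily rhythm, bind the receptor encoded by *Nr3c1* and switch on genes such as *Tsc22d3*, *Fkbp5*, *Sgk1* and *Per1*. The comparison asks whether all cell classes of a library were shifted together in these genes, as a difference in sampling time or steroid tone would be shared by the cells of one kidney.

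Cells were barcodes with at least 1000 unique molecular identifiers (UMIs, counted molecules) and at most 10% of mitochondrial UMIs, which left 14109 MRL/lpr, 11018 control and 16586 MRL/lpr + hUC-MSC cells. Total counts per library were between 90812138 and 103319588 UMIs, and the median cell held 3716, 5069 and 2727 UMIs in that order. A cell entered a class when at least 3 of 8 class markers were present, with at least 2 times as many as of any other class. Endothelial-like cells numbered 4617, 5740 and 6263, mesangial and stromal-like cells 899, 500 and 900, podocyte-like cells 948, 2355 and 193, and T and NK-like cells 659, 100 and 509. Erythroid-like cells numbered 324, 402 and 223, with haemoglobin genes at 84.3%, 94.5% and 67.7% of their UMIs. Mononuclear phagocyte-like cells (853 and 1409) and neutrophil-like cells (273 and 198) were compared only between the lupus libraries, since the control library held under 50 of each. No class had a marker of another class among its 10 leading genes by fold, and 8 of the 11 classes had at least 2 of their own there, podocyte-like and distal nephron-like cells 1 each. The proximal tubule class had 0 of its own, although *Slc5a12*, a sodium-coupled lactate transporter of that segment named here after the list was seen, was among the 10. The gate itself selects cells by these markers, so the marker counts describe the classes and do not check their identity. Cells without a class, most of which carried markers of more than one class, were 35.7%, 16.1% and 40.9% of the cells kept. Libraries shared between 35 and 61 barcodes, at most 0.432% of the cells of a library. The *Fas* level was 425 counts per 1000000 in MRL/lpr endothelial-like cells, 380 in control and 427 in treated cells. It was slightly higher in both lupus libraries, and no label is read from a difference of this size. Levels are UMIs per 1000000 of the summed UMIs of a class (CPM). A difference between libraries is a log2 ratio of these levels with an exact 95% interval that covers counting error only.

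For orientation in the genome, 3 promoter windows are shown, because they hold the letter motifs through which clock factors and the glucocorticoid receptor are known to act. The windows are the 250 bases before a RefSeq transcription start on GRCm38.p6, 5′ to 3′ on the strand of the gene. Capitals mark exact matches, on either strand, to the E-box CACGTG bound by CLOCK and BMAL1, the D-box TTATGTAA bound by DBP and TEF, the ROR and REV-ERB element AGGTCA, or the glucocorticoid response element, 2 half-sites AGAACA facing each other 3 bases apart.
*Per1* (chr11:69098699-69098948, + strand): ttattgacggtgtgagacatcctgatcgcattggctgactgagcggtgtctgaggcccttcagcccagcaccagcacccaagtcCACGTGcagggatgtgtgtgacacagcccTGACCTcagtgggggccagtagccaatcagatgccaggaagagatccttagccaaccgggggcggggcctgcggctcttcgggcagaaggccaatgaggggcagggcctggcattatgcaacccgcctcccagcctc
*Per3* (chr4:151044666-151044915, - strand): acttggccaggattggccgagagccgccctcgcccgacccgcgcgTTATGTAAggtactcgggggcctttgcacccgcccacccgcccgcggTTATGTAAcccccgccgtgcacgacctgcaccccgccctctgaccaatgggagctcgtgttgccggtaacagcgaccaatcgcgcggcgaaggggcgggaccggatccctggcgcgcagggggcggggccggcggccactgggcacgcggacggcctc
*Sgk1* (chr10:21993640-21993889, + strand): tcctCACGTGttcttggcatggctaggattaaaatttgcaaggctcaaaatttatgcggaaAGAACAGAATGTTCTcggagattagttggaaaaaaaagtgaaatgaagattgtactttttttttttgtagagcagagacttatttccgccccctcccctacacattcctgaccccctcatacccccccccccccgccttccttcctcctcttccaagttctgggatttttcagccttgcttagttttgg
The *Per1* window held an E-box 166 bases and a ROR and REV-ERB element 137 bases before the start. The *Per3* window held D-boxes at 205 and 158 bases. The window of the fifth of 6 *Sgk1* starts held an E-box at 246 bases and the full glucocorticoid response element at 189 bases. Over all 32851 promoters of the table, an E-box was in 6.02%, a D-box in 0.819%, a ROR and REV-ERB element in 14.0%, and the full glucocorticoid response element in 0.00913%, that is in 3 windows. Of the 10 genes, 9 had an entry, with 18 starts between them, and E-boxes were also in the windows of *Tef* and *Fkbp5*. The half-site AGAACA alone was in 16.1% of all promoters and in windows of *Sgk1*, *Tef* and *Tsc22d3*. The cyclic AMP response element TGACGTCA, present in 1.55% of all promoters, matched none of the 18 windows. A match describes the letters of a window and not the binding of a factor.

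Genes and classes together gave 50 pairs of 1 gene in 1 class for MRL/lpr against control, and 37 of them had at least 20 UMIs over both libraries. Of these 37, 6 were at least 2-fold higher and 2 at least 2-fold lower in MRL/lpr, and over all genes and classes 15.4% of pairs were higher and 5.68% lower by the same rule. With free RNA subtracted 3 of 33 were higher and 4 lower, a setting for which no share over all genes is given. Without the erythroid-like class, whose haemoglobin share differed between libraries, 4 of 35 were higher and 2 lower. Over all genes 81.9% were higher in that class, which adds to the 15.4%. In each of the other classes between 9.49% and 14.6% of all genes were higher and between 5.67% and 6.27% lower, so 4 of 35 is near the share of all genes. For MRL/lpr + hUC-MSC against MRL/lpr, 50 of 70 pairs could be compared, 0 were at least 2-fold higher and 8 at least 2-fold lower, beside 6.33% and 5.76% of all pairs. For MRL/lpr + hUC-MSC against control, 36 of 50 pairs could be compared, with 4 at least 2-fold higher and 8 lower, beside 17.4% and 8.04% of all pairs. The 3 pairs of libraries share members, so they are not separate sources of evidence. Counting intervals lay above 0 in 14 and below 0 in 15 of the 37 pairs of the first comparison (29.1% and 24.1% over all genes), in 3 and 24 of the 50 of the second (19.6% and 15.4%), and in 10 and 18 of the 36 of the last (32.6% and 21.7%). Over the clock genes the median log2 ratio was -0.08, -0.45 and -0.44 in these comparisons, and over the glucocorticoid response genes it was 0.32, -0.51 and -0.04, beside 0.04, 0.02 and 0.09 over all genes. Against control the sign of the clock median depends on the settings. That of MRL/lpr was 0.29 with cells thinned to 1000 UMIs, and that of the treated library 0.26 under a stricter gate for the classes and 0.07 with at most 5% ribosomal UMIs. Without the erythroid-like class the medians of the glucocorticoid response genes were 0.03, -0.60 and -0.20, so the first was then at that of all genes. Both lists had genes on either side of control.

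**Figure D1:**
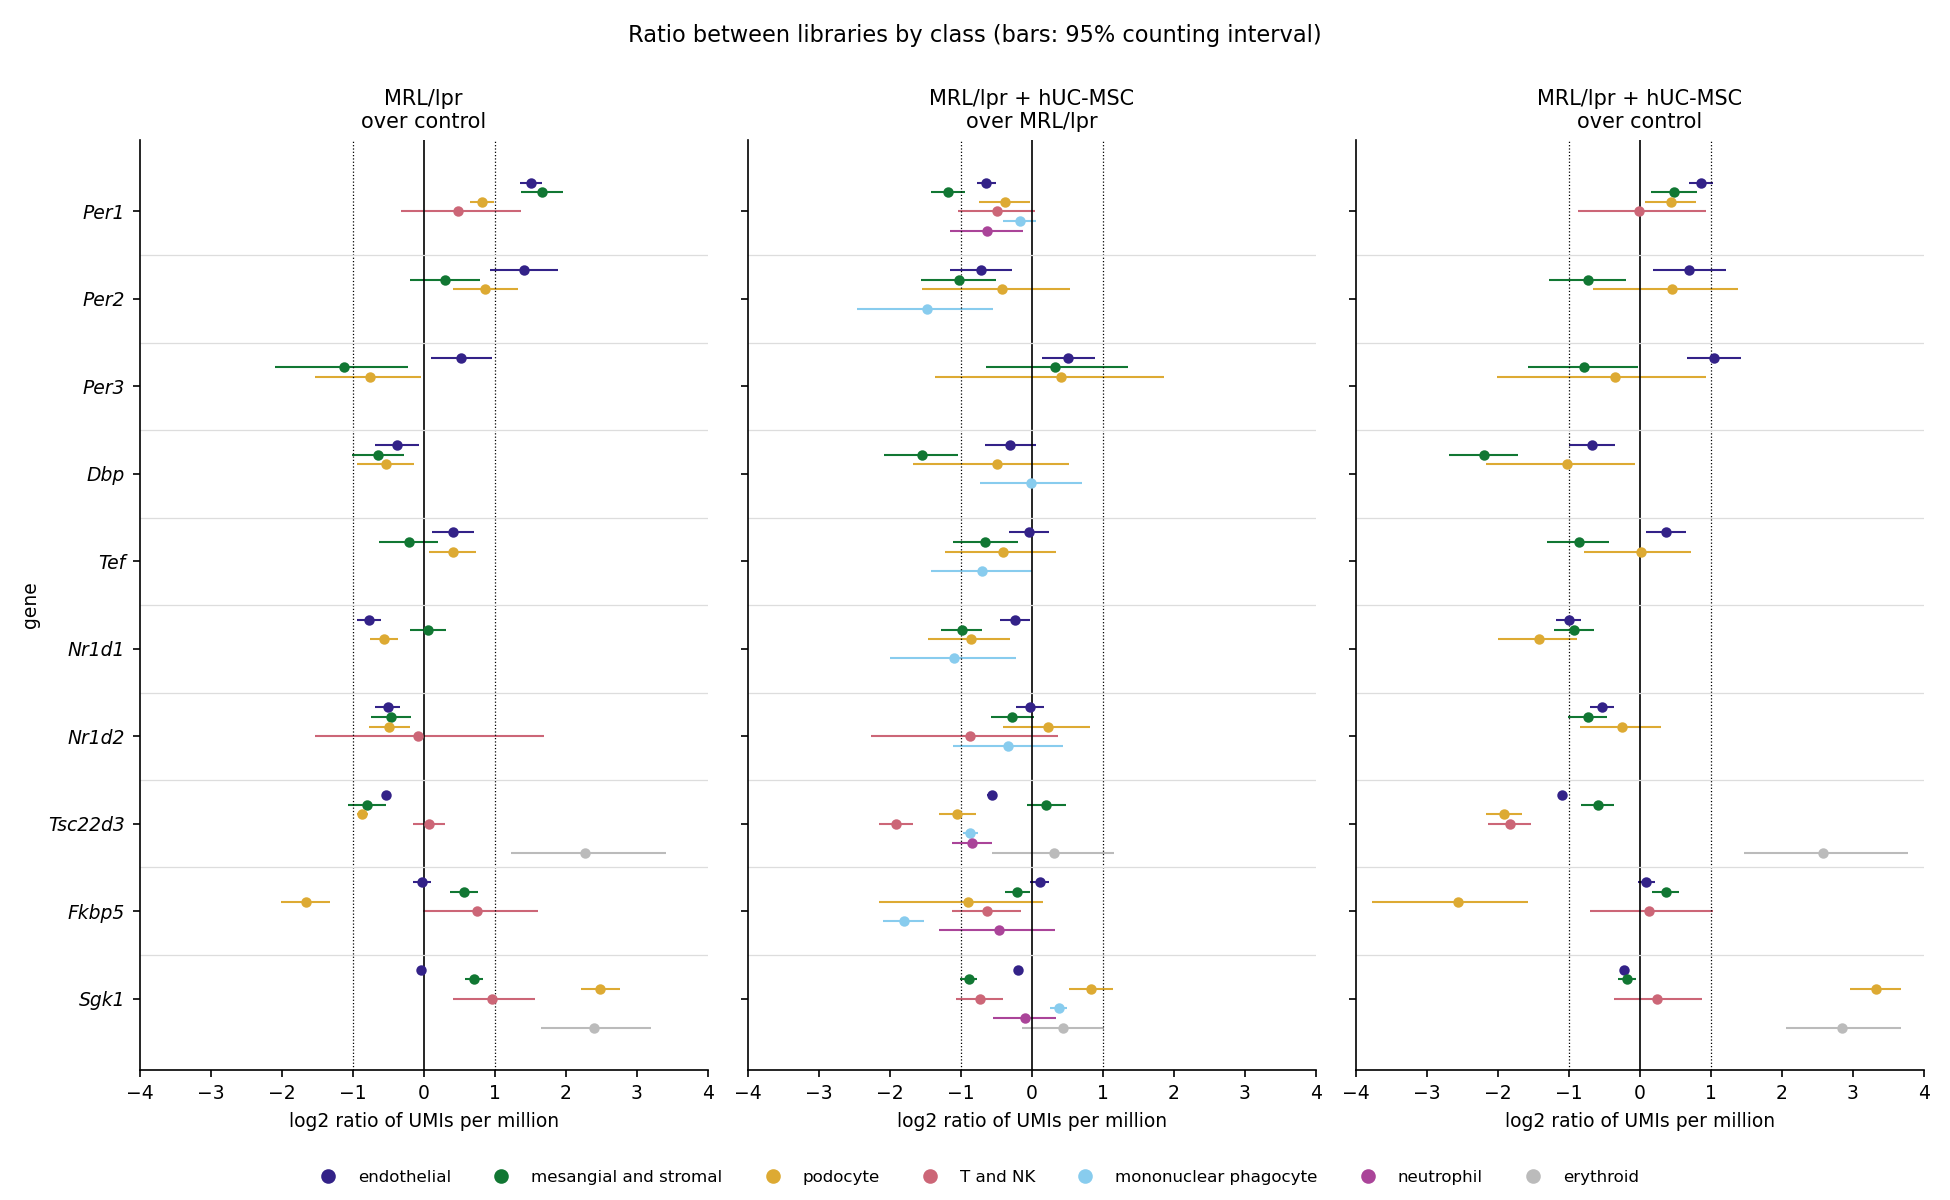
Log2 ratios of CPM for the 10 genes (rows), one panel for each pair of libraries, with colours for the cell classes, bars for the exact 95% interval of counting error and dotted lines at 2-fold. *Per1* lay above 0 and *Dbp* below 0 in the endothelial, mesangial and stromal, and podocyte-like classes of both lupus libraries against control, and *Sgk1* in podocyte-like cells lay farthest to the right, at 2.49 and 3.32. The podocyte-like *Dbp* value of the treated library changed sign with cells thinned, so no direction is read from it.

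The *Per* genes encode the repressors of the loop. *Per1* (chr11:69095217-69109960) was at 47.8 CPM in MRL/lpr endothelial-like cells, 16.8 in control and 30.6 in MRL/lpr + hUC-MSC. In mesangial and stromal-like cells the levels were 91.7, 29.0 and 40.5 CPM, and in podocyte-like cells 79.6, 45.1 and 61.3 CPM. The order was the same in these 3 classes, with MRL/lpr highest, control lowest and the treated library between them. Against control, the MRL/lpr level was higher by a log2 ratio of 1.51 (95% interval 1.35 to 1.66) in endothelial-like, 1.66 (1.37 to 1.96) in mesangial and stromal-like and 0.82 (0.66 to 0.98) in podocyte-like cells. The treated library lay below MRL/lpr by -0.64, -1.18 and -0.38 and above control by 0.86, 0.48 and 0.44, each with an interval clear of 0. *Per1* was the 1 gene of the 10 that lay above control in all 3 classes, as 13.4% of all genes did for MRL/lpr and 11.7% for the treated library.

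In immune classes the picture for *Per1* was less clear. Below, the name resident covers endothelial, mesangial and stromal, and podocyte-like cells only. Whether the phagocyte-like cells were resident or blood-borne was not tested. T and NK-like cells held 57.6, 41.4 and 41.2 CPM, the control level resting on 15 UMIs, and the 3 ratios between them had intervals that included 0. Mononuclear phagocyte-like cells held 56.2 CPM in MRL/lpr and 49.9 in the treated library, again with an interval that included 0. Neutrophil-like cells had the highest *Per1* level of any class in both lupus libraries, 142 and 92.1 CPM, and the treated level was lower by a log2 ratio of -0.63 (-1.15 to -0.12). After each cell was thinned to 1000 UMIs, 16.1% of MRL/lpr and 11.6% of treated neutrophil-like cells had a *Per1* UMI, against 31.5% and 21.7% before thinning at median depths of 1964 and 1934 UMIs. Erythroid-like cells, taken as the class that should hold least of it, had a *Per1* UMI in 0.617% and 0.448% of thinned cells. Barcodes of 1 to 100 UMIs, which stand for free RNA, had 75.7, 30.5 and 60.8 CPM of *Per1*, in the same order as the resident classes.

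*Per2* (chr1:91415982-91459324) was sparse. Mesangial and stromal-like cells held 19.4, 15.7 and 9.49 CPM in the MRL/lpr, control and treated libraries, the highest level of any class in the last 2 and not separated by counting error from distal nephron and collecting duct-like cells (22.3 CPM) in MRL/lpr, nor from podocyte-like cells in the treated library. The endothelial-like levels were 5.10, 1.92 and 3.11 CPM and the podocyte-like levels 10.9, 5.99 and 8.17 CPM. MRL/lpr was above control in endothelial-like cells (1.41, 0.94 to 1.90) and podocyte-like cells (0.87, 0.41 to 1.32), and the interval in mesangial and stromal-like cells (0.30) included 0. The treated library was below MRL/lpr in mononuclear phagocyte-like cells by -1.48 (-2.47 to -0.55), in mesangial and stromal-like cells by -1.03 and in endothelial-like cells by -0.71. *Per3* (chr4:151003652-151044665) did not follow *Per1*. Its endothelial-like levels of 4.47, 3.09 and 6.38 CPM were higher in both lupus libraries than in control, whereas mesangial and stromal-like cells had 3.77, 8.22 and 4.75 CPM, with control highest. The log2 ratio of MRL/lpr to control was accordingly 0.53 (0.11 to 0.96) in the former and -1.12 (-2.10 to -0.22) in the latter, the last resting on 15 and 36 UMIs. In podocyte-like cells it was -0.75 (-1.54 to -0.04).

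**Figure D2:**
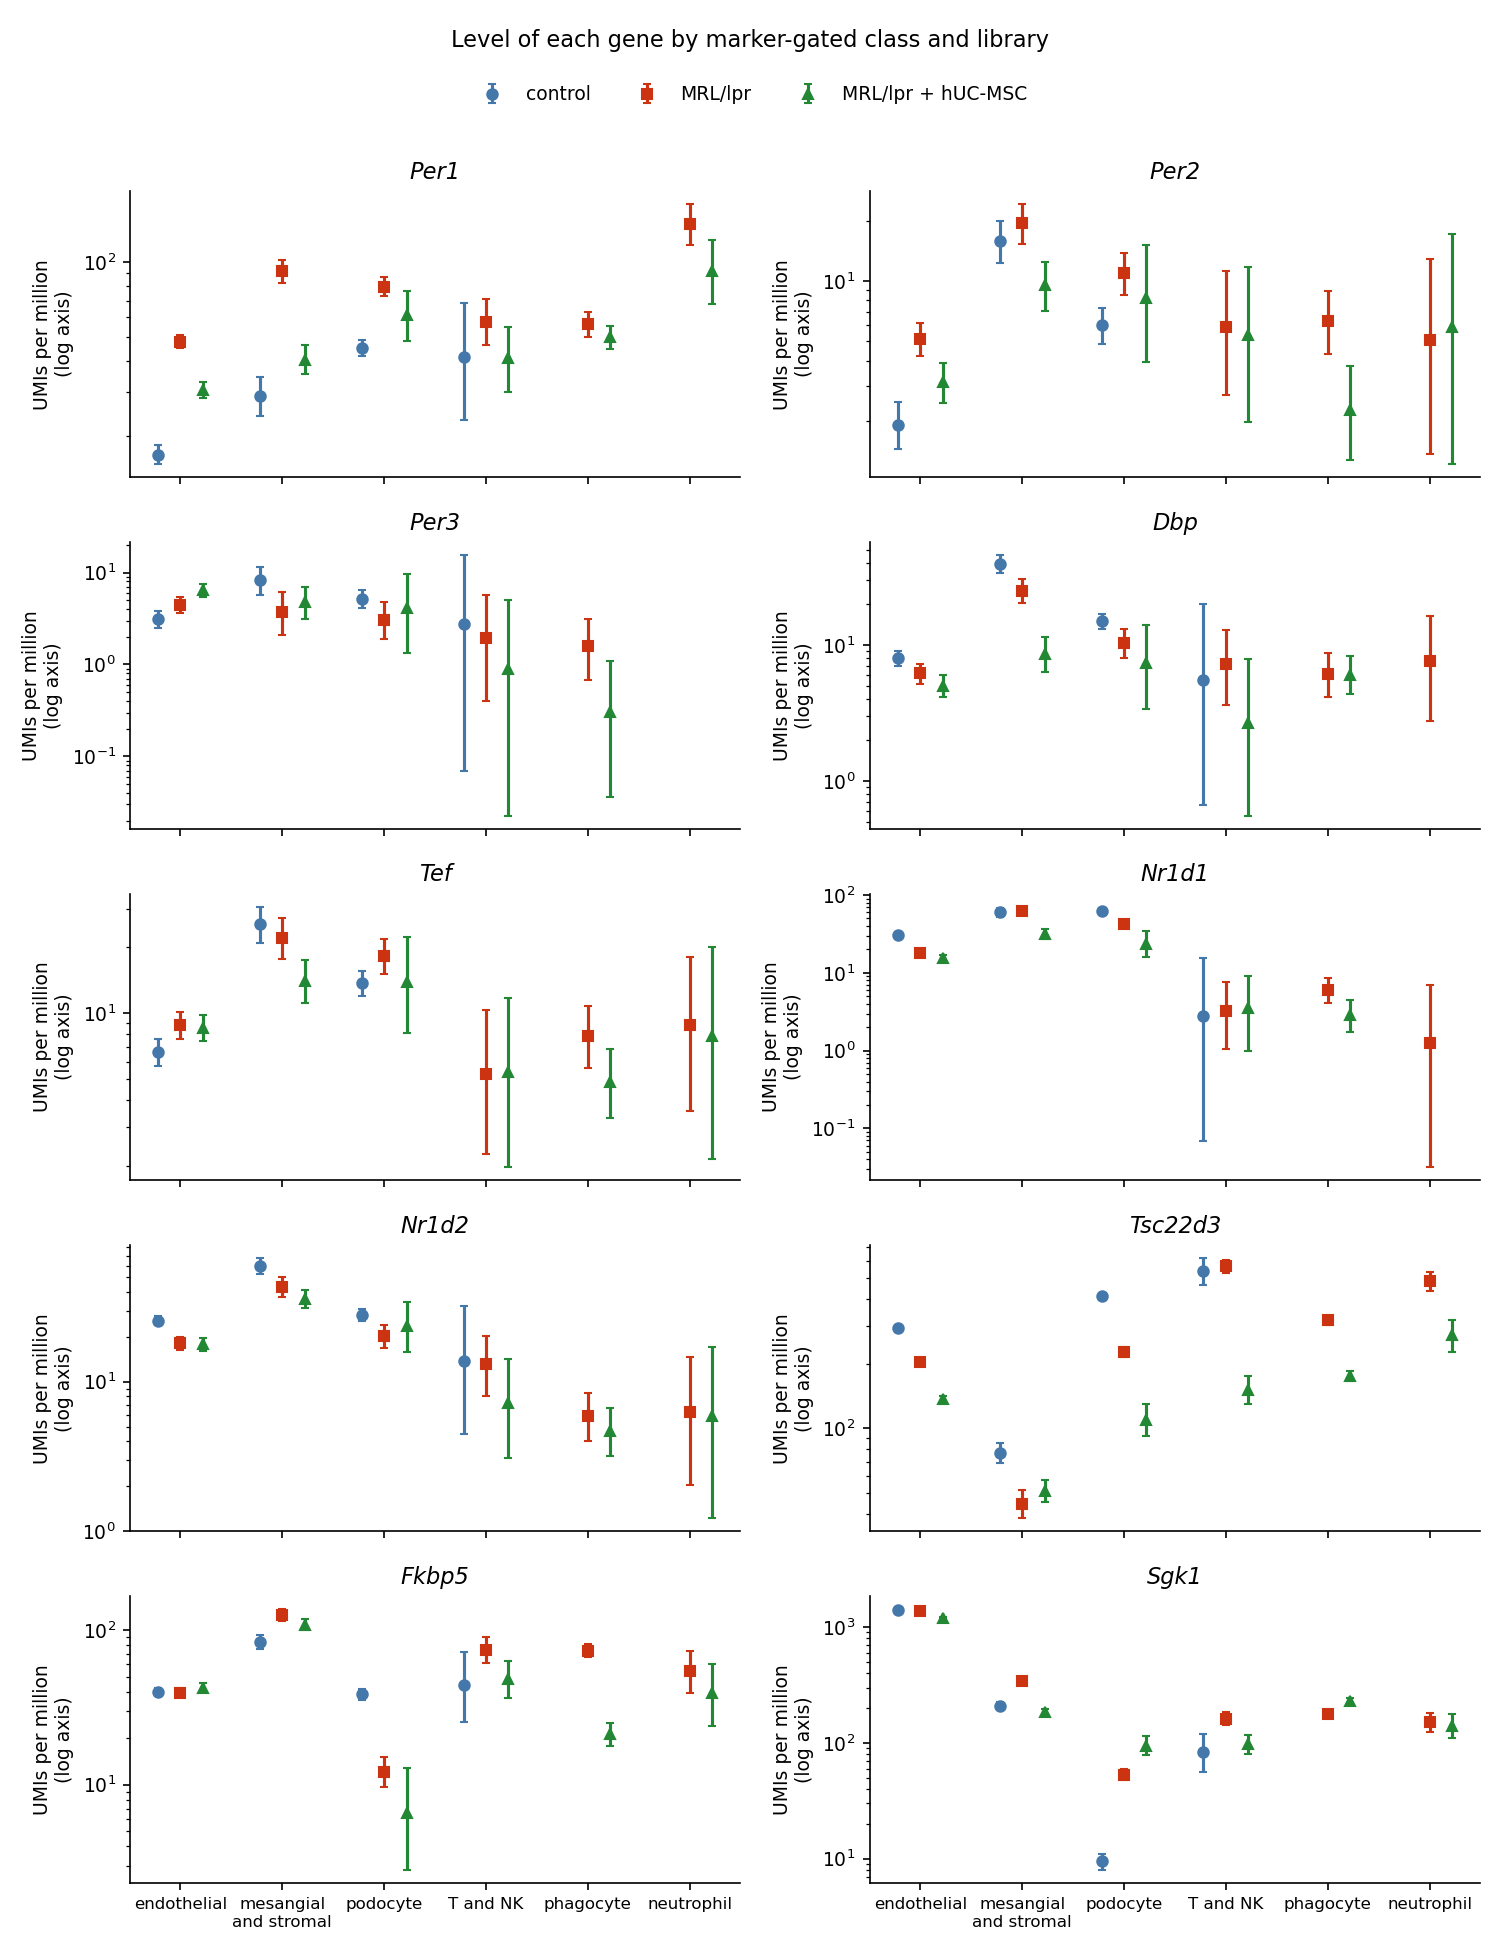
Levels of the 10 genes in UMIs per 1000000 (log axis), one panel for each gene, in 6 cell classes, with colours for the 3 libraries and bars for the exact 95% interval. Phagocytes and neutrophils of the control library, with under 50 cells each, and sums with no UMI are not drawn. *Per1* in MRL/lpr (47.8, 91.7 and 79.6 in endothelial, mesangial and stromal, and podocyte-like cells) sat above control (16.8, 29.0 and 45.1), and *Sgk1* was highest in endothelial-like cells, from 1201 to 1405.

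*Dbp* and *Tef* encode PAR-domain activators of the output genes. *Dbp* (chr7:45705088-45710203), one of the genes with the widest daily swing in many tissues, was at 25.1, 39.3 and 8.58 CPM in mesangial and stromal-like cells of the MRL/lpr, control and treated libraries. It was at 6.17, 7.97 and 5.01 CPM in endothelial-like cells and at 10.3, 14.9 and 7.35 CPM in podocyte-like cells. Control was highest and the treated library lowest in each of the 3. MRL/lpr was below control by -0.64 (-1.01 to -0.28), -0.37 (-0.68 to -0.06) and -0.53 (-0.94 to -0.14) in the order of these classes. With free RNA subtracted the endothelial-like value was -0.33 (-0.66 to 0.01) and its interval included 0. The treated library was below control by -2.19 (-2.69 to -1.72), -0.67 and -1.02 (-2.17 to -0.07), each interval below 0 and the podocyte value resting on 9 treated UMIs. That value was 0.19 (-2.16 to 1.87) with cells thinned to 1000 UMIs and -0.33 (-1.49 to 0.62) under a stricter gate for the class, so no direction is read from it. Against MRL/lpr it was lower in mesangial and stromal-like cells (-1.55, -2.08 to -1.04), while the intervals of endothelial, podocyte and mononuclear phagocyte-like cells (-0.30, -0.49 and -0.02) included 0. Free RNA held 6.59, 16.8 and 8.32 CPM of *Dbp*, and cells without a class 12.1, 29.0 and 5.01 CPM. *Tef* (chr15:81802421-81826863) differed less. Its endothelial-like levels were 8.81, 6.63 and 8.57 CPM, and both lupus libraries lay slightly above control there, by 0.41 and 0.37. With free RNA subtracted these were 0.09 (-0.26 to 0.42) and 0.27 (-0.05 to 0.58), so neither was then clear of 0. In podocyte-like cells MRL/lpr was above control by 0.41, and by 0.39 (0.04 to 0.73) with free RNA subtracted. In mesangial and stromal-like cells, at 22.1, 25.6 and 14.1 CPM, the treated library was lower than control by -0.86 (-1.30 to -0.43). The highest *Tef* level in MRL/lpr, 45.5 CPM, was in proximal tubule-like cells.

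*Nr1d1* and *Nr1d2* encode REV-ERB alpha and beta, the repressors of *Arntl*. *Nr1d1* (chr11:98767932-98775333) was at 18.0, 30.7 and 15.3 CPM in endothelial-like, 62.6, 60.0 and 31.6 CPM in mesangial and stromal-like and 42.9, 63.1 and 23.7 CPM in podocyte-like cells. The treated library was lowest in all 3. It held 0.499 times the control level in endothelial-like cells (log2 interval -1.18 to -0.83), was below control by -0.93 (-1.21 to -0.64) and -1.41 in the other two, and was below MRL/lpr by -0.23, -0.99 and -0.86, with each interval below 0. With free RNA subtracted the endothelial-like value against MRL/lpr was -0.12 (-0.36 to 0.12). A lower level than in MRL/lpr was also measured in mononuclear phagocyte-like cells, at 6.11 and 2.87 CPM, or -1.09 from 31 and 19 UMIs. MRL/lpr was below control in endothelial-like (-0.77, -0.94 to -0.60) and podocyte-like cells (-0.56, -0.75 to -0.36), but in mesangial and stromal-like cells the ratio was 0.06 and its interval included 0. T and NK-like cells held at most 5 *Nr1d1* UMIs in a library. *Nr1d2* (chr14:18204054-18239127) was highest in mesangial and stromal-like cells, at 43.5, 59.8 and 36.0 CPM. MRL/lpr was below control by -0.50 in endothelial-like, -0.46 in mesangial and stromal-like and -0.48 in podocyte-like cells, 3 values close to each other and clear of 0. Between the lupus libraries none of the 5 *Nr1d2* ratios of classes had an interval clear of 0, and cells without a class were lower in the treated library by -0.58.

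The 3′ end of *Nr1d1* overlaps that of *Thra* (chr11:98740638-98769006), the thyroid hormone receptor alpha gene on the other strand, by 1075 bases. Whether strand was used in counting is not given in the sources used here, and without it reads of the overlap cannot be told apart. *Thra* was at 50.4, 73.9 and 39.8 CPM in endothelial-like cells, so its ratios (-0.55, -0.34 and -0.89) had the same signs as those of *Nr1d1*. In mesangial and stromal-like cells *Thra* in MRL/lpr was below control (-0.36), where *Nr1d1* was not. The part of the overlap in the *Nr1d1* values was not tested.

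The ratio of *Per1* to *Nr1d1* UMIs within a class, a measure chosen after the values were seen, set the control library apart in 3 resident classes. On the log2 scale it was -0.87 (-1.03 to -0.71) in control endothelial-like, -1.05 in mesangial and stromal-like and -0.49 in podocyte-like cells. In MRL/lpr it was 1.41, 0.55 and 0.89 in these classes, and in the treated library 1.00, 0.36 and 1.37. All 3 classes were thus below 0 in control and above 0 in both lupus libraries. The ratio was -1.25, 1.27 and 1.49 in cells without a class and -0.94, 1.04 and 1.21 in free RNA, in the order control, MRL/lpr and treated. Tubule classes of MRL/lpr differed, at -0.88 in proximal tubule-like cells and -0.77 (-1.43 to -0.14) in distal nephron and collecting duct-like cells. The latter had the highest *Nr1d1* level (71.8 CPM), not separated by counting error from mesangial and stromal-like cells (62.6). These tubule classes had under 50 cells in the other libraries. In mononuclear phagocyte-like cells, where *Nr1d1* was scarce, it was 3.20 in MRL/lpr and 4.12 in the treated library. T and NK-like cells did not follow the split, since control had 15 *Per1* and 1 *Nr1d1* UMIs there, also more *Per1*, beside ratios of 4.14 in MRL/lpr and 3.52 in the treated library. Other pairs of clock genes did not split at 0 in the resident classes. *Per1* to *Dbp* was 1.08, -0.44 and 1.60 in control endothelial, mesangial and stromal, and podocyte-like cells, under 2.95, 1.87 and 2.95 in MRL/lpr. *Per2* to *Nr1d2* was below 0 in these classes of every library, and was -1.92 in mesangial and stromal-like cells of both control and the treated library.

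**Figure D3:**
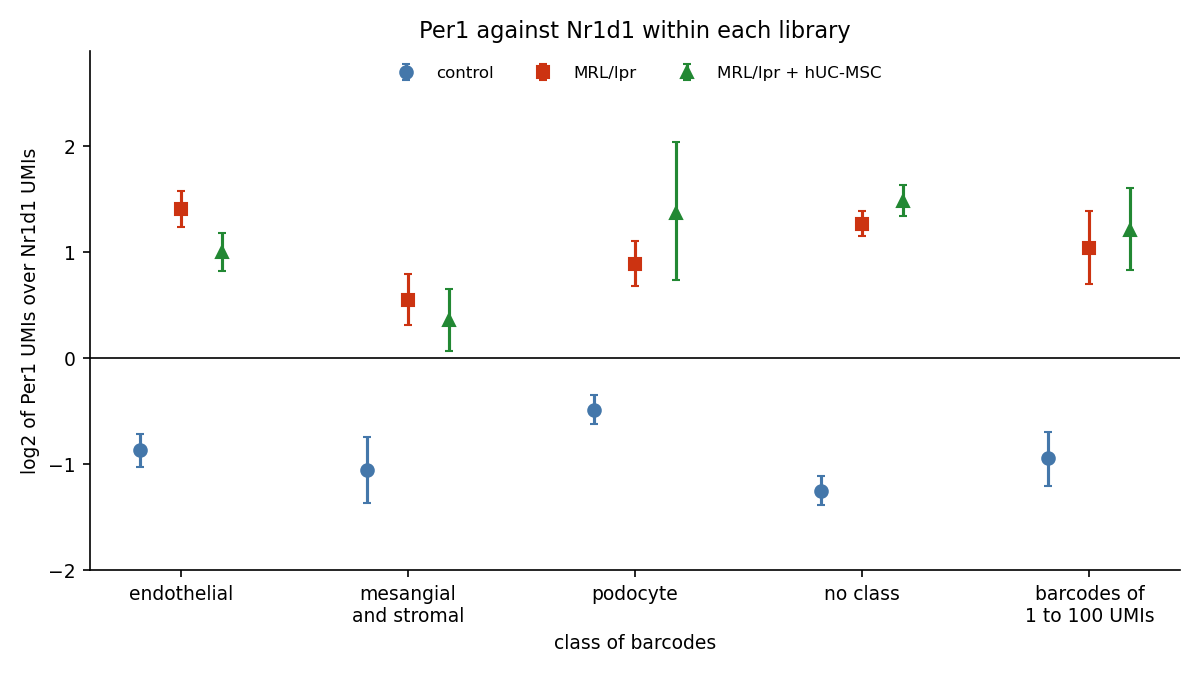
Log2 ratio of *Per1* to *Nr1d1* UMIs in 3 resident cell classes, in cells without a class and in barcodes of 1 to 100 UMIs, with colours for the libraries and bars for the exact 95% interval. Control values lay between -1.25 and -0.49 and those of the lupus libraries between 0.36 and 1.49 in the sums drawn. The tubule-like classes of MRL/lpr, at -0.88 and -0.77 and so within the control range, and T and NK-like cells, where control also had more *Per1*, do not follow this split and are not drawn.

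*Tsc22d3* (chrX:140539528-140600659) encodes GILZ, an anti-inflammatory leucine zipper protein that glucocorticoids induce. T and NK-like cells held 567 CPM in MRL/lpr and 538 in control, the highest level of any class there, and 151 in the treated library, where neutrophil-like cells were highest. The lupus and control levels did not differ beyond counting error (0.08, -0.15 to 0.31), while the treated level was lower than MRL/lpr by -1.91 (-2.15 to -1.67). This class pools T and NK cells. The paper reports that the share of T cells fell more than that of NK cells with treatment. The part of this mix in the T and NK-like values of any gene here was not tested. A *Tsc22d3* UMI was in 42.2%, 47.0% and 14.9% of T and NK-like cells thinned to 1000 UMIs, and in 61.2%, 76.0% and 26.5% of the cells unthinned, at median depths of 1943, 2750.5 and 1741 UMIs. Erythroid-like cells had one in 2.47%, 0.995% and 3.59% of thinned cells, at median depths of 3307.5, 4638 and 2324 UMIs. Neutrophil-like cells held 484 CPM in MRL/lpr and 271 in the treated library, and mononuclear phagocyte-like cells 319 and 175 CPM. Both were lower in the treated library, by -0.84 (-1.13 to -0.55) and -0.86 (-0.97 to -0.75).

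Resident cells had less *Tsc22d3* in both lupus libraries than in control. The endothelial-like levels were 203, 294 and 137 CPM and the podocyte-like levels 226, 411 and 109 CPM. MRL/lpr was below control by -0.54 (-0.59 to -0.49) and -0.86 (-0.94 to -0.78), and the treated library was below MRL/lpr by -0.56 and -1.05. Mesangial and stromal-like cells had the lowest levels of the resident classes, 44.5, 77.1 and 51.3 CPM, with MRL/lpr below control (-0.79, -1.06 to -0.53) and no clear difference between the lupus libraries (0.21, -0.07 to 0.48). With free RNA subtracted the treated library was above MRL/lpr there, by 0.48 (0.16 to 0.81). Against MRL/lpr, *Tsc22d3* was thus lower in 5 of 7 classes of the treated library. Its interval included 0 in erythroid-like cells and, only without free RNA subtracted, in mesangial and stromal-like cells. Free RNA held 157, 169 and 127 CPM, a smaller range than in the cells. Erythroid-like cells stood on the other side, at 28.4, 5.91 and 35.4 CPM, but there the median log2 ratio of all genes against control was 1.94 for MRL/lpr and 2.97 for the treated library.

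*Fkbp5* (chr17:28399094-28517527) encodes a co-chaperone of HSP90 that lowers the affinity of the glucocorticoid receptor and is itself induced by steroid. Endothelial-like cells did not separate the libraries, at 39.3, 39.8 and 42.5 CPM, and each of the 3 intervals included 0, that of MRL/lpr against control running from -0.15 to 0.11. Podocyte-like cells separated them widely, with 12.2, 38.4 and 6.54 CPM, the last from 8 UMIs. MRL/lpr was lower than control there by -1.66 (-2.02 to -1.32) and the treated library by -2.56 (-3.77 to -1.57). Free RNA, its share in a class estimated from markers of other classes, would alone give 4.67, 1.14 and 5.09 CPM there, so most of the treated level was at the background. With free RNA subtracted the ratios were -2.20 (-2.65 to -1.78) and -4.42 (-7.47 to -2.56). The second rests on the little that is left of 8 UMIs, so its size is not read. Mesangial and stromal-like cells, which held most *Fkbp5*, went the other way with 124, 83.8 and 108 CPM, or 0.57 (0.37 to 0.77) and 0.37 (0.18 to 0.56) above control. Mononuclear phagocyte-like cells had 73.7 CPM in MRL/lpr and 21.1 in the treated library, a log2 ratio of -1.80 (-2.09 to -1.52). T and NK-like cells held 74.7, 44.2 and 48.3 CPM, with the treated library below MRL/lpr by -0.63 (-1.12 to -0.15). Proximal tubule-like cells of MRL/lpr held 96.7 CPM.

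*Sgk1* (chr10:21882184-21999903), a kinase induced by glucocorticoids and aldosterone that stimulates sodium transport, was an endothelial gene in these libraries. Endothelial-like cells held 1369, 1405 and 1201 CPM, and 69.2%, 69.5% and 65.8% of them had a *Sgk1* UMI after thinning (93.7%, 96.4% and 89.5% unthinned, at median depths of 3780, 4305 and 2830 UMIs). MRL/lpr and control differed by -0.04 (-0.06 to -0.02) on the log2 scale, a sign that turned with free RNA subtracted (0.06, 0.03 to 0.08), and the treated library was lower than MRL/lpr by -0.19 (-0.21 to -0.17). Mesangial and stromal-like cells held 343, 210 and 185 CPM, with MRL/lpr above control by 0.71 (0.59 to 0.83) and the treated library below MRL/lpr by -0.89 (-1.01 to -0.77). T and NK-like cells held 162, 82.8 and 97.5 CPM, a log2 ratio of MRL/lpr to control of 0.97 (0.42 to 1.56). The estimated free RNA in them would give 80.4, 13.1 and 61.8 CPM, and with it subtracted the ratio was 0.42 with an interval that included 0 (-0.21 to 1.10). Mononuclear phagocyte-like cells held 177 CPM in MRL/lpr and 230 in the treated library (0.38, 0.26 to 0.50).

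The widest difference among all pairs was *Sgk1* in podocyte-like cells, at 53.1, 9.47 and 94.8 CPM. MRL/lpr was above control by 2.49 (2.21 to 2.77) and the treated library by 3.32 (2.96 to 3.68). A *Sgk1* UMI was in 8.02%, 0.892% and 8.81% of thinned and 25.0%, 5.27% and 32.1% of unthinned podocyte-like cells, at median depths of 6852, 6668 and 5316 UMIs. Erythroid-like cells, at 56.8, 10.7 and 77.5 CPM and 5.86%, 1.74% and 9.42% of thinned cells, were in the same order. Free RNA held 541, 428 and 592 CPM of *Sgk1*, and the share of free RNA in podocyte-like cells, estimated from markers of other classes, was 9.75%, 2.84% and 8.83%. That share alone would give 52.7, 12.1 and 52.3 CPM, close to the level measured in MRL/lpr and control podocyte-like cells and under that of the treated library. The *Sgk1* level of podocyte-like cells in MRL/lpr and control was therefore at the background and is not read as expression. In endothelial-like cells, where the same share was 14.7%, 4.27% and 13.4%, the measured level lay far above it.

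**Figure D4:**
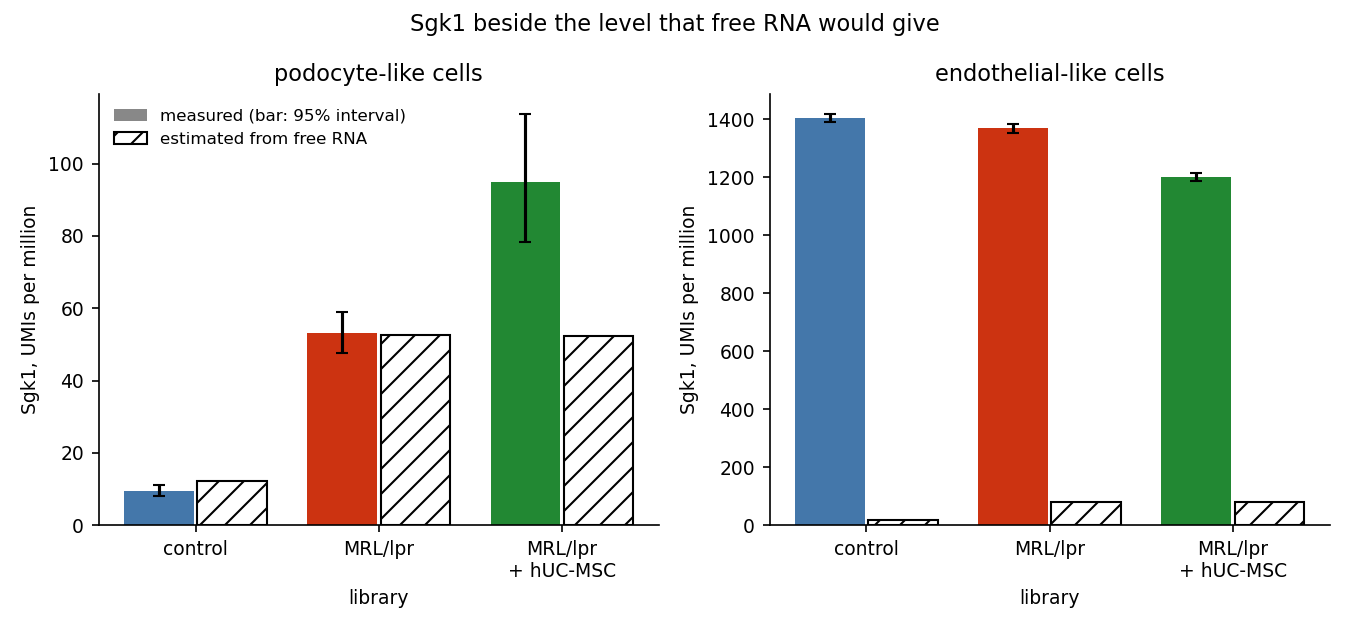
*Sgk1* level in UMIs per 1000000 measured in each library (filled bars, with exact 95% intervals) beside the level that the estimated share of free RNA would give (hatched bars), in podocyte-like and endothelial-like cells on separate scales. Podocyte-like cells of MRL/lpr (53.1 against 52.7) and control (9.47 against 12.1) held about the free RNA level, and endothelial-like cells (1201 to 1405) far more.

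Of the other clock genes, the activators described here were *Arntl*, *Clock*, *Npas2* and *Rora*. *Arntl* was at 29.2, 33.8 and 39.8 CPM in endothelial-like cells and at 10.3, 10.0 and 27.2 CPM in mesangial and stromal-like cells. The treated library was above MRL/lpr by 0.45 (0.30 to 0.59) and 1.40 (0.89 to 1.94), and in podocyte-like cells by 0.91 (0.24 to 1.54). It lay on the other side of MRL/lpr in T and NK-like (-1.03, -1.87 to -0.25) and mononuclear phagocyte-like cells (-0.64, -1.24 to -0.05). Of the 3 resident classes, mesangial and stromal-like cells had both the lowest ratio of the treated library to control for *Dbp* and the highest for *Arntl*, 1.44 (0.94 to 1.96). This pairing was taken up after the values were seen, and no direction is read from the podocyte-like *Dbp* value. *Nr1d1* did not share this order, since its ratio was highest in mesangial and stromal-like cells (-0.93) and lowest in podocyte-like cells (-1.41). *Clock* in endothelial-like cells was at 65.2, 56.7 and 77.9 CPM, with both lupus libraries above control by 0.20 and 0.46. *Rora*, a receptor that activates *Arntl*, was lower in MRL/lpr than in control in podocyte-like (-1.11, -1.29 to -0.94), mesangial and stromal-like (-0.76) and T and NK-like cells (-1.41). *Npas2* in endothelial-like cells rested on 19, 9 and 37 UMIs, with both lupus libraries above control, by 1.49 (0.27 to 2.82) and 2.30 (1.23 to 3.54).

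The list of 10 repressors and modifiers had 6 genes above and 3 below control in MRL/lpr endothelial-like cells, and 1 above and 6 below MRL/lpr in treated ones, beside 37.9% and 28.9% of all genes in the former and 34.8% and 18.2% in the latter. *Bhlhe40*, a repressor that competes for E-boxes, was at 147, 41.7 and 101 CPM there, with MRL/lpr above control by 1.82 (1.73 to 1.92) and the treated library by 1.28 (1.18 to 1.38). Its values in other classes were taken up after they were seen. They were 1.92 in mesangial and stromal-like and 2.21 in podocyte-like cells for MRL/lpr over control, and -0.14 (-0.59 to 0.33) in T and NK-like cells. *Hlf*, the third PAR-domain gene, had 60, 21 and 17 UMIs, higher in MRL/lpr than in control (1.93, 1.19 to 2.72) and lower in the treated library than in MRL/lpr (-1.97, -2.84 to -1.17). The part of free RNA in these UMIs was not tested. *Nfil3*, which represses D-box genes, was lower in the treated library than in MRL/lpr by -1.02 (-1.17 to -0.88). *Cry2*, a partner of the PER proteins, was above control in the treated library by 0.76 (0.33 to 1.19).

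The other glucocorticoid response genes, a list of 15, had 11 above and 4 below control in MRL/lpr endothelial-like cells, where 37.9% and 28.9% of all genes were above and below. In the treated library 1 was above and 11 below MRL/lpr (34.8% and 18.2% of all genes), and 7 were on each side of control (45.1% and 26.5%). Immediate-early and dissociation genes, described below, were lower there as well, and the part of that response in these counts was not tested. Over all classes, 44 intervals were above and 12 below 0 of 64 for MRL/lpr against control, 13 above and 43 below of 88 for the treated library against MRL/lpr, and 32 above and 23 below of 64 for the treated library against control. Erythroid-like cells, where most genes lay above control, gave 9 of the 44 and 9 of the 32. The all-gene shares of these comparisons are those given above for the 10 genes. *Klf15* had 44, 11 and 11 UMIs, with ratios of 2.41 (1.43 to 3.51) and -2.15 (-3.25 to -1.17) for the first comparisons. The estimated share of free RNA in endothelial-like cells was 14.7%, 4.27% and 13.4%, and its part in these few UMIs was not tested. *Mt2*, a metallothionein, was above control in MRL/lpr by 1.60, *Cdkn1a*, a cell cycle inhibitor, below MRL/lpr in the treated library by -1.22, and *Angptl4*, an inhibitor of lipoprotein lipase, above control there by 1.68. *Klf9*, a direct receptor target, was at 238, 374 and 135 CPM in endothelial-like cells, and the treated library was below control by -1.47 (-1.52 to -1.41). Taken up after the values were seen, its ratio of the treated library to control was -2.43 in mesangial and stromal-like, -1.35 in podocyte-like and -2.17 in T and NK-like cells, and each interval was below 0. *Zbtb16*, another strongly steroid-induced gene and also taken up afterwards, was at 63.2, 110 and 41.7 CPM in endothelial-like cells, the order of *Tsc22d3*. The list of steroid receptors and cofactors had 3 genes above and 4 below control of 8 in MRL/lpr endothelial-like cells, where 37.9% and 28.9% of all genes were above and below. Over all classes of MRL/lpr, 6 intervals were above and 20 below control of 32, beside 29.1% and 24.1% over all genes. Of 7, 7 and 6 genes compared in mesangial and stromal, podocyte and T and NK-like cells, 0 were above and 5, 6 and 5 below. Over all genes of these classes 23.3%, 27.0% and 11.4% were above and 24.8%, 28.9% and 12.1% below. *Nr3c1*, the receptor itself and taken up afterwards, did not differ between MRL/lpr and control in endothelial-like cells (0.01, -0.06 to 0.08). It was lower in T and NK-like cells (-1.21, -1.66 to -0.76). Among the enzymes that interconvert active and inactive steroid, *Hsd11b1* in endothelial-like cells rested on 33, 10 and 44 UMIs (2.13 and 2.40 against control), and *Hsd11b2* was 1.31 above control in MRL/lpr and -1.21 below MRL/lpr in the treated library. The part of free RNA in the values of both enzymes was not tested. *Fkbp4*, a co-chaperone that favours receptor transport, was lower in the treated library than in MRL/lpr by -0.59, and the chaperone *Hsp90ab1* lower than control by -1.26.

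Of the 5 genes around SGK1 and the mineralocorticoid response, 4 were above and 1 below control in MRL/lpr endothelial-like cells, beside 37.9% and 28.9% of all genes. *Scnn1a* and *Scnn1b*, subunits of the epithelial sodium channel, were above control by 1.09 and 1.05 on 120 and 67 UMIs. *Scnn1b* and *Scnn1g* were lower in the treated library than in MRL/lpr by -1.40 and -0.98. *Nedd4l*, the ubiquitin ligase that SGK1 inhibits, was above control in the treated library by 0.92 and *Tsc22d1* below it by -0.59. *Hsd11b2* and *Scnn1a* are best known from the collecting duct. Their endothelial-like levels were at most 13.6 and 5.37 CPM, under those of free RNA (47.5, 92.2 and 19.2 CPM for *Hsd11b2*, and 18.7, 24.1 and 7.36 CPM for *Scnn1a*). The part of free RNA in these values, and in those of *Scnn1b* and *Scnn1g*, was not tested.

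Immediate-early and dissociation genes, a list of 14 that responds within minutes to handling of the tissue, differed between the libraries beside these results. In endothelial-like cells all 14 were lower in the treated library than in MRL/lpr, with a median log2 ratio of -1.33, where 18.2% of all genes were lower. All 14 were also lower than in control, with a median of -1.61, where 26.5% of all genes were. *Atf3* and *Fosb* were lower than in MRL/lpr by -2.05 and -1.97, and *Btg2* and *Jun* lower than in control by -2.22 and -2.06. In mesangial and stromal, podocyte and T and NK-like cells 12, 12 and 11 of the 14 were below MRL/lpr in the treated library and 2, 1 and 1 above. Over all genes 13.4%, 9.05% and 17.6% were below there and 25.3%, 9.59% and 7.63% above. In mononuclear phagocyte-like and neutrophil-like cells 8 and 8 were below and 4 and 3 above, beside 22.8% and 12.1% of all genes below. MRL/lpr and control endothelial-like cells had 6 above and 8 below, beside 37.9% and 28.9% of all genes, with *Hspa1a* at -0.98 and *Fosb* at 0.90. In podocyte-like cells 12 of the 14 were above and 2 below control in MRL/lpr, beside 27.0% and 28.9% of all genes. *Per1* and *Sgk1* can also be induced as immediate-early genes. The part of this response in their values, and in those of the other glucocorticoid response genes, was not tested.

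Profiles over the 21 sums of a class in a library with at least 50 cells gave the genes most alike 2 of the 10, by the Pearson correlation of log2(CPM + 10), a description with no test, since the sums share libraries and depths. *Dbp* was most like *Sardhos* (r = 0.86), *Amer1* (0.85), *Plekhh3* (0.84), *Nr1d2* (0.84) and *Il11ra1* (0.84). *Sardhos* held only 86 UMIs over the 21 sums, so its rank rests on few counts. *Nr1d2* was thus among the 5 nearest to *Dbp*. The other clock genes were not, at 0.78 for *Nr1d1*, 0.69 for *Per2*, 0.69 for *Tef*, 0.59 for *Per3* and 0.30 for *Per1*. *Tsc22d3* was most like *Arpc5* (0.91), *Necap1* (0.90), *Cry1* (0.90), *Zfp622* (0.90) and *Ppp2r5a* (0.89). Among the 10 genes its correlation was highest with *Per1* (0.63), and it was 0.33 with *Fkbp5* and 0.22 with *Sgk1*.

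Taken class by class, 4 of the 10 genes lay on one side of control in endothelial, mesangial and stromal, and podocyte-like cells of MRL/lpr alike, *Per1* above and *Dbp*, *Nr1d2* and *Tsc22d3* below, *Dbp* in endothelial-like cells only without free RNA subtracted. Over the 10822 genes that could be compared in all 3 classes, 13.4% were above and 11.7% below in each. Against MRL/lpr, *Per1* and *Nr1d1* were lower in the 3 classes of the treated library, as 2.94% of 10517 genes were, *Nr1d1* in endothelial-like cells only without free RNA subtracted. Against control, *Per1* was above and *Dbp*, *Nr1d1* and *Tsc22d3* below in the treated library (the podocyte-like value of *Dbp* changed sign with cells thinned), where 11.7% and 8.17% of 10648 genes were above and below. Among the other genes, *Fkbp5* had intervals on opposite sides of control in different classes of both lupus libraries. So did *Per3* in MRL/lpr and *Per2* in the treated library, and these held with and without free RNA subtracted. *Sgk1* in the treated library was also on both sides. With free RNA subtracted its side above control was podocyte-like cells. Control there, at 9.47 CPM, was under the 12.1 that free RNA would give, so that side is not read.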

How the data were processed

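The authors digested kidneys with collagenase V, enriched glomeruli by gradient centrifugation and differential adhesion, and barcoded single cells on the 10x platform. The deposited files are raw UMI counts per gene and barcode, 1 library a group, with all 6794880 barcodes and 32285 genes listed, before any filter. Per the submitters' processing notes, Cell Ranger and STAR were used with mm10. The matrix header names Cell Ranger 4, and the methods name another version. The mitochondrial limit used here is also the authors' own. Their limits on genes and ribosomal UMIs were run as alternatives, and their doublet calls were not used.

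Here barcodes with at least 1000 UMIs and at most 10% mitochondrial UMIs were kept and gated by fixed lists of 8 markers. Cells with markers of more than one class, where doublets would fall, stayed without a class, and no doublet caller was run. Raw counts were summed by class and library and given per 1000000 (CPM). Classes with at least 50 cells in both libraries were compared. A gene was compared in a class where the libraries of a pair together held 20 UMIs or more, and a sum of 0 was set to a floor of 3 counts. Exact Poisson intervals for levels and conditional binomial intervals for ratios, at 95%, cover counting error only. With 1 library a group no test across replicates was possible, so a fixed 2-fold rule was used. Free RNA was taken from barcodes of 1 to 100 UMIs, and its share in a class was estimated from markers of the other classes, a low estimate since gating removes cells with them. The interval code was tested on simulated data.

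The 10 genes and all companion lists were chosen with earlier results of these data known. Named in the text are the 10 genes, the activators of the clock, the 2 genes of each other list with the largest ratio in endothelial-like cells for each pair of libraries, the 5 genes most alike *Dbp* and *Tsc22d3*, class markers and *Fas*. One item that the rule would name, and the counts that hold it, are not reported here. Genes named beyond this rule are marked as taken up after their values were seen. Gene positions are those of GENCODE M21 on GRCm38, in which 32158 of the 32285 identifiers were found, and promoters come from the RefSeq table for GRCm38.p6. *Per2* had no promoter entry. Computation used Python 3.11.15, numpy 2.4.6, scipy 1.17.1, pandas 2.3.3 and matplotlib 3.10.9. There were 13 alternatives of processing, 2 of them chosen after seeing the data.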

Additional observations from a re-analysis of the deposited data

Results flagged for a closer look

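The values here lay on opposite sides of control in different classes of the same libraries, with counting intervals on either side of 0. Whether the classes differ was not tested, since each group is 1 library. *Per3* was above control in endothelial-like cells (0.53 in MRL/lpr, 1.04 in MRL/lpr + hUC-MSC) and below it in mesangial and stromal-like cells (-1.12 and -0.79). *Tsc22d3* was above control in erythroid-like cells (2.27 and 2.58) and below it in podocyte-like cells (-0.86 and -1.91), beside a median of all genes in erythroid-like cells of 1.94 and 2.97. *Fkbp5* was above control in mesangial and stromal-like cells (0.57 and 0.37) and below it in podocyte-like cells (-1.66 and -2.56). *Sgk1* was above control in podocyte-like cells (2.49 and 3.32), where free RNA alone would give 52.7 CPM in MRL/lpr, 12.1 in control and 52.3 in the treated library, and slightly below it in endothelial-like cells (-0.0375 and -0.23), the first of which was 0.06 with free RNA subtracted. With free RNA subtracted, *Per3* in mesangial and stromal-like cells of the treated library was -0.77 (-1.57 to 0.01).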

How the results depend on the processing

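No paired analysis was possible because each group is 1 library. Of 1423 values of single genes and classes recomputed under 13 alternatives, 1300 stayed within their counting interval, 120 moved outside it and 3 that had been at least 2-fold changed sign, while sign changes of smaller values are counted among the others. Those 3, all for the treated library against control, were *Dbp* in podocyte-like cells with cells thinned to 1000 UMIs (0.19) and, centred on the median of all genes, *Tsc22d3* (-0.39) and *Sgk1* (-0.12) in erythroid-like cells. Alternatives with no minimum of UMIs per gene, a minimum of 50, or no erythroid-like class only choose which values are listed. Their 123, 116 and 117 values could not move, so they say nothing on stability. Keeping only endothelial-like cells with an *Ehd3* UMI changed that class alone, and all 123 values stayed within. The median of the glucocorticoid response genes, 0.32 for MRL/lpr against control, was 0.57 with a minimum of 500 UMIs, 0.59 with at most 5% ribosomal UMIs and 0.57 with no minimum of UMIs per gene. It was closer to 0, at 0.03, without the erythroid-like class, 0.01 under a strict gate of 4 markers and 4 times any other class, 0.06 with free RNA subtracted, 0.06 with cells thinned and 0.08 with a minimum of 50 UMIs. For the treated library against control, -0.04, it was 0.11 with a minimum of 500 UMIs, 0.55 with the ribosomal limit, 0.0940 with no minimum of UMIs per gene, -0.50 with free RNA subtracted and -0.34 when centred. The median of the clock genes there, -0.44, was 0.26 under that strict gate, 0.07 with the ribosomal limit and -0.12 with cells thinned. For MRL/lpr against control, -0.08, it turned to 0.29 with cells thinned, 0.30 with no minimum of UMIs per gene and 0.16 with the ribosomal limit.

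Pairs at least 2-fold higher in MRL/lpr than control were 6 of 37. They became 3 of 11 with the ribosomal limit, 3 of 33 with free RNA subtracted and 10 of 44 with no minimum. Pairs lower, 2 of 37, became 1 of 11 with the ribosomal limit, 4 of 33 with free RNA subtracted and 1 of 21 under the strict gate. For the treated library against MRL/lpr, 1 pair was higher instead of 0 with 500 UMIs (of 52), the ribosomal limit (of 14) or free RNA subtracted (of 48). With the ribosomal limit 3 of 14 and under the strict gate 5 of 39 were lower, instead of 8 of 50. More were lower with free RNA subtracted (12 of 48), a minimum of 2000 UMIs (10 of 49), no minimum of UMIs per gene (10 of 62) and when centred (9 of 50). Against control, the treated library had 4 of 36 pairs higher and 8 lower. Those higher became 2 under the strict gate (of 21), with free RNA subtracted (of 34) and without erythroid-like cells (of 34). They were also 2 of 36 with CPM without mitochondrial, ribosomal-protein and haemoglobin genes, and 1 of 36 when centred. Those lower became 1 of 11 with the ribosomal limit and 4 of 21 under the strict gate. The ribosomal limit and the strict gate leave fewer cells, so fewer pairs reach 20 UMIs. No share over all genes is given here for these settings, so these counts are not read against all genes. The causes of the other shifts were not tested.

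Each group is 1 library, so sampling time, mice, dissociation and library cannot be told apart from the group. In podocyte-like cells of the treated library, 193 cells limit *Per2*, *Per3*, *Dbp* and *Fkbp5* to at most 10 UMIs each.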
